A study of Mus musculus with 9 samples.

Results

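Expression of 32 mouse genes of the blood vessel lining was followed in the tumour-bearing omentum after tumour-specific T cells had been given by either of 2 routes. The genes were taken by symbol from a listed set and fall into 19 identity genes that mark endothelial cells, 9 genes that let leukocytes adhere to vessels, and 4 genes of vessel sprouting. All 32 were found among the 55359 genes of the count table, and all 32 had enough counts to be tested. In the intraperitoneal (IP) group, tumour-bearing C57BL/6 mice received OT-I T cells, whose receptor recognises ovalbumin, into the peritoneal cavity. The intravenous (IV) group received the same kind of cells into the blood, and the PBS group received saline, for which the labels give no route. The OT-I cells had been electroporated with IL-12 mRNA, and no group received T cells without it, so the cells and the cytokine cannot be told apart. Each mouse, 7 to 10 weeks old, had been injected intraperitoneally with 500000 B16-OVA cells, a mouse melanoma line that carries ovalbumin. Treatment followed on day 6 and whole omenta were taken 18 h later, so that all 3 groups carried tumour.

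Endothelial cells line blood and lymph vessels and are held together by junction proteins such as VE-cadherin and PECAM1. Under inflammatory cytokines, vessels display selectins, which slow passing leukocytes, and then ICAM1 and VCAM1, which bind leukocyte integrins and hold the cells on the vessel wall. Growing vessels are led by tip cells under the control of VEGF, and their stability is set by the receptors TIE1 and TEK with the angiopoietins. The omentum is rich in fat and holds lymphoid clusters, the milky spots, that leukocytes enter through their vessels.

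Each group held 3 libraries, IP 2, 3 and 4, IV 1, 2 and 4, and PBS 1, 2 and 3, numbered by mouse, and values for single libraries are given in that order throughout. Total counts ran from 7379798 in IV 2 to 44626843 in PBS 3, and intervals from counting are therefore widest in IV 2. IV 4 stood apart from the other IV libraries: across the tested genes its log2 CPM (library-scaled counts) correlated at 0.981 with PBS 3, against 0.948 with IV 1 and 0.953 with IV 2. Pancreatic acinar transcripts, from an organ that borders the omentum, took 0.019, 0.0244 and 1.87% of counts in the IP libraries, 2.5, 0.471 and 0.00103% in the IV libraries and 0.0021% or less in the PBS libraries. Adipocyte, mesothelial and melanoma markers were present in every group, with Adipoq, an adipocyte hormone, at 41.6 ± 16 CPM in IP, 83.8 ± 16.4 in IV and 55.3 ± 22 in PBS (SD, n = 3 each).

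Levels are given as CPM, counts per 1e+06 of the library total scaled by the TMM method. Differences are log2 fold changes with a standard error (SE) from edgeR's quasi-likelihood test, fitted over 17123 genes, and a gene is said to have risen or fallen where the Benjamini-Hochberg adjusted p was under 0.05. In whole tissue, fewer cells of a type and less RNA per cell cannot be told apart. Per kilobase of exon, Eng stood highest among the 32 genes in the PBS group, at 87.8 CPM per kilobase in IP, 72.5 in IV and 55.6 in PBS. Plvap followed at 37.2 in IP, 42.9 in IV and 26.2 in PBS, and Mcam at 44.6 in IP, 14.5 in IV and 18.5 in PBS. Sele was lowest, at 0.107 CPM per kilobase in IP, 0.0971 in IV and 0.104 in PBS.

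After IP delivery, 12 of the 32 genes rose, 3 fell and 17 did not pass. Among all genes tested, 18.7% rose and 14.2% fell in this comparison, 32.9% in either direction. The median log2 fold change of the 32 genes was 0.46, against 0.02 over all genes tested. After IV delivery 5 of the 32 rose and 3 fell, with 10.4% of all genes higher, 5.66% lower and 16.1% called in either direction, and the medians were 0.13 for the 32 genes and 0.04 for all genes. Between the routes, 5 of the 32 were higher and 2 lower in IP than in IV, where 5.93% of all genes were higher, 4.47% lower and 10.4% called in all. Without PBS 1, IP 2 or IP 4, 1 of the 32 fell in IP. Without PBS 1 or PBS 2, 1 rose in IV, and 2 without IV 2. Without IP 2 or IP 3, 3 were higher in IP than in IV, and the 2 lower calls were lost, as they were without IV 2, while 1 was left without IP 4, IV 1, PBS 1 or PBS 3. In IP the 3 libraries lay wholly above those of PBS for 28.4% of all genes and wholly below for 24.8%. The shares were 16.5% and 13.6% for IV against PBS, and 17.9% and 13.5% for IP against IV, which is to be read beside each statement below that groups did not overlap. Both treated groups were set against the same PBS libraries, so their differences from PBS are not independent of each other. With limma on the deposited log2 CPM in place of the TMM-scaled counts, the median over all genes moved to -0.14 for IP and -0.02 for IV against PBS, and -0.11 for IP against IV. The share of rises among calls over all genes was then 42.6% for IP against PBS, in place of 56.8%, 54.6% for IV against PBS, in place of 64.8%, and 40.7% for IP against IV, in place of 57%.

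**Figure D1:**
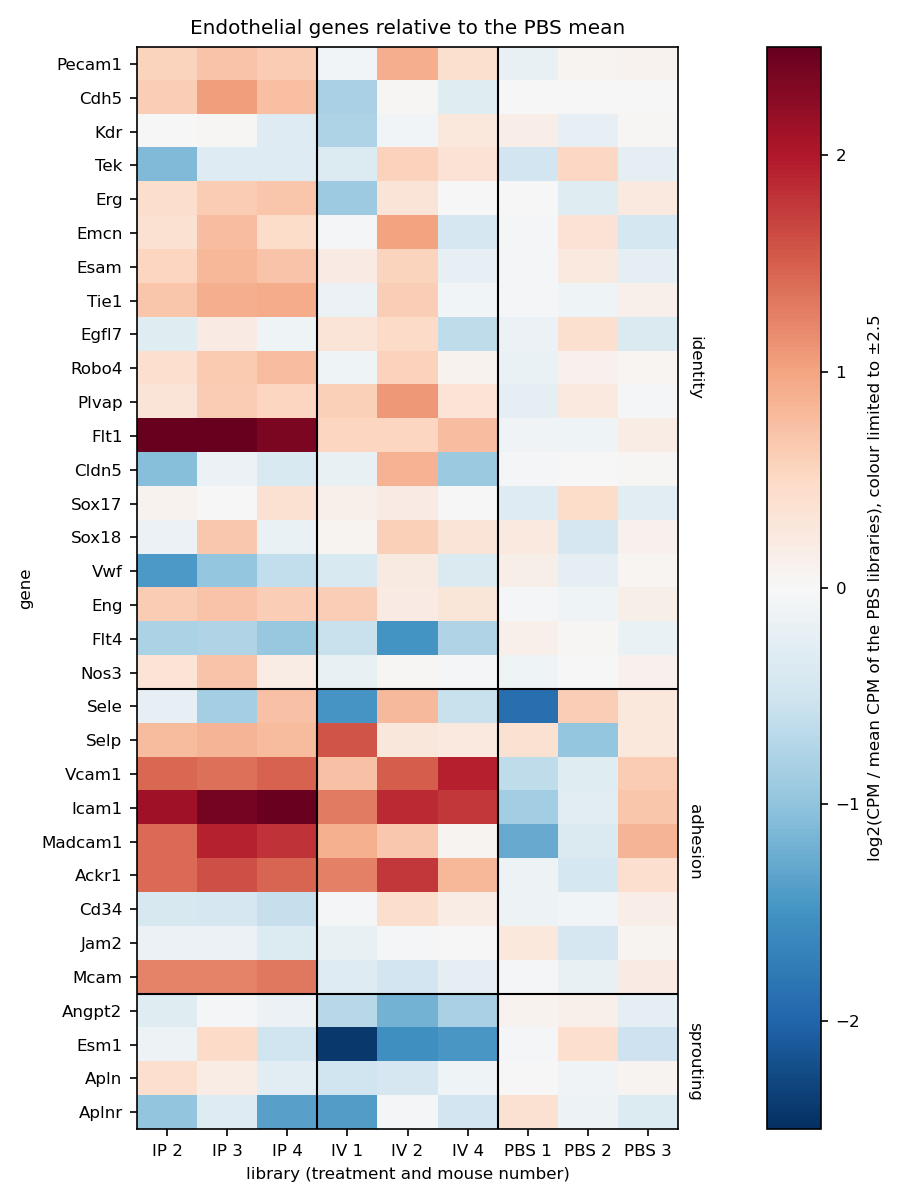
Heat map of the 32 genes (vertical axis) in the 9 libraries (horizontal axis), coloured by log2 of CPM over the mean CPM of the PBS libraries, limited to ±2.5. Flt1, Icam1 and Vcam1 are red in all 3 IP libraries, and Esm1 is blue in all 3 IV libraries, where it had 0.8 to 1.55 CPM.

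Identity genes moved in both directions after IP delivery: 7 of 19 rose, 2 fell and 10 did not pass, with a median log2 fold change of 0.5. Over all genes tested, 18.7% rose and 14.2% fell in IP. With limma on the deposited log2 CPM, 4 identity genes rose in place of 7, and 9 of all 32 in place of 12. Flt1, a decoy and signalling receptor for VEGF, changed most among them. It had 68.0, 68.3 and 61.2 CPM in the IP libraries, 17.4, 17.5 and 20.6 in the IV libraries and 11.3, 11.2 and 13.6 in the PBS libraries. All 3 IP libraries lay above every IV library, and all 3 IV libraries above every PBS library. The log2 fold change was 2.45 (SE 0.14, edgeR adjusted p = 9.55e-06) for IP against PBS, 0.63 (SE 0.13, adjusted p = 0.0124) for IV against PBS and 1.83 (SE 0.14, adjusted p = 0.000117) for IP against IV. The IV difference did not pass without PBS 1 (adjusted p = 0.07) or PBS 2 (adjusted p = 0.0578), and stood at 0.53 without IV 4 (adjusted p = 0.0169). Which cells of the omentum made Flt1 was not tested.

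Cdh5, which encodes VE-cadherin, was higher in IP than in both other groups. Its levels were 30.1, 40.2 and 33.1 CPM in IP, 11.2, 19.9 and 15.9 in IV and 19.3, 19.7 and 19.6 in PBS. The IP libraries were separate from all the others, while the IV and PBS libraries overlapped. It rose by 0.82 against PBS (SE 0.19, edgeR adjusted p = 0.00812) and stood 1.16 higher in IP than in IV (SE 0.2, adjusted p = 0.00519), on the log2 scale. The difference between IV and PBS was -0.34 (SE 0.2, adjusted p = 0.275).

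Tie1, a receptor of the angiopoietin system, had 17.2, 20 and 20.4 CPM in IP, 9.71, 16.3 and 10.2 in IV and 10.5, 9.90 and 11.7 in PBS. IV 2 came within 1 CPM of the lowest IP library, and the other IV libraries lay with PBS. It rose in IP against PBS by 0.85 (SE 0.2, edgeR adjusted p = 0.00809), and its difference between IP and IV was 0.7 (SE 0.2, adjusted p = 0.0538). Without IV 2 that difference was 0.95 (adjusted p = 0.0111). Eng, the coreceptor endoglin, which macrophages and stromal cells also make, had 350, 371 and 345 CPM in IP, 346, 258 and 276 in IV and 219, 208 and 248 in PBS. All treated libraries lay above all PBS libraries, and Eng rose by 0.66 in IP (SE 0.14, adjusted p = 0.00496), with a difference of 0.38 in IV (SE 0.14, adjusted p = 0.093).

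Pecam1, Esam and Robo4 rose by less. Pecam1, a junction protein that leukocytes and platelets also carry, had 59.0, 66.2 and 62.0 CPM in IP, 38.2, 75.6 and 53.1 in IV and 35.3, 42.4 and 42.8 in PBS. Esam, a junction molecule, had 21.0, 25.7 and 23.8 CPM in IP, 16.7, 21.2 and 12.6 in IV and 14.1, 17.2 and 12.2 in PBS. Robo4, a guidance receptor of quiescent vessels, had 9.62, 11.4 and 12.3 CPM in IP, 6.69, 10.7 and 7.69 in IV and 6.42, 7.79 and 7.42 in PBS. For these genes the IP libraries lay above the PBS libraries, and the IV libraries spread across both. The log2 fold changes in IP were 0.64 for Pecam1 (SE 0.21, edgeR adjusted p = 0.038), 0.7 for Esam (SE 0.2, adjusted p = 0.0218) and 0.62 for Robo4 (SE 0.2, adjusted p = 0.0352). Pecam1 did not pass without any 1 of the 6 libraries compared (adjusted p 0.0597 to 0.137). Robo4 did not pass without IP 3, IP 4 or any 1 PBS library (0.0595 to 0.133), nor Esam without IP 3, IP 4, PBS 1 or PBS 3 (0.0626 to 0.0821). Accordingly 4 in place of 7 identity genes rose without PBS 1, PBS 3, IP 3 or IP 4.

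Vwf and Flt4 fell after IP delivery. Vwf, the adhesive clotting protein stored with P-selectin in endothelial granules, had 12.8, 17.7 and 22.6 CPM in IP, 26.7, 40.2 and 27.1 in IV and 38.5, 29.4 and 35.9 in PBS. Its IP libraries lay below all others, and it fell by 0.97 against PBS (SE 0.23, edgeR adjusted p = 0.00784). It was also lower in IP than in IV, at -0.81 (SE 0.23, adjusted p = 0.0485), a call lost when IP 2, IP 3, IV 1, IV 2, PBS 1 or PBS 3 was left out (adjusted p 0.0531 to 0.183). Flt4, the VEGF-C receptor of lymphatic and some blood vessels, had 7.44, 7.66 and 6.71 CPM in IP, 8.73, 4.54 and 7.62 in IV and 14.0, 13.2 and 11.4 in PBS. Flt4 was lower than PBS in every treated library, with a log2 fold change of -0.82 in IP (SE 0.22, adjusted p = 0.0148) and -0.85 in IV (SE 0.22, adjusted p = 0.027). The IP call was lost without IP 2, IP 4 or PBS 1 (0.0517 to 0.0632), and the IV call without IV 2, PBS 1 or PBS 2 (0.0532 to 0.108). Without PBS 1, IP 2 or IP 4, 1 identity gene fell in IP in place of 2.

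Plvap, the protein of the diaphragms of fenestrated vessels, was the other identity gene besides Flt1 to rise after IV delivery. It had 65.0, 81.3 and 75.4 CPM in IP, 78.6, 111 and 66.4 in IV and 44.0, 61.5 and 50.9 in PBS, so every treated library lay above every PBS library. The log2 fold change was 0.5 in IP (SE 0.2, edgeR adjusted p = 0.072) and 0.71 in IV (SE 0.2, adjusted p = 0.0342). The IV call was lost without any 1 of IP 2, IP 3, IP 4, IV 1, IV 2, PBS 1 and PBS 3 (adjusted p 0.0533 to 0.144), and stood at 0.85 without IV 4 (adjusted p = 0.00808). In IP the difference passed without IV 2 (adjusted p = 0.0317) or IV 4 (adjusted p = 0.0316).

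The remaining 9 identity genes passed in no comparison. Erg, a transcription factor that maintains endothelial identity, had 5.47, 6.31 and 6.54 CPM in IP, 2.15, 5.07 and 4.02 in IV and 4.10, 3.30 and 4.78 in PBS. Its IP libraries lay above the rest, at 0.58 against PBS on the log2 scale (SE 0.29, edgeR adjusted p = 0.155). Kdr, the main signalling receptor for VEGF, had 11.0, 11.2 and 8.73 CPM in IP, 6.37, 10.5 and 13.2 in IV and 12.2, 9.44 and 11.2 in PBS. The groups overlapped, and Kdr differed by -0.09 in IP (SE 0.25, adjusted p = 0.816), where Flt1, the other receptor for the same ligand, rose by 2.45. Tek, the angiopoietin receptor, had 2.01, 3.43 and 3.44 CPM in IP, 3.38, 6.40 and 5.52 in IV and 3.09, 6.18 and 3.64 in PBS, with a difference of -0.53 in IP (SE 0.35, adjusted p = 0.274), where Tie1 rose. The endothelial sialomucin Emcn averaged 8.93 ± 1.34 CPM in IP, 7.63 ± 4.19 in IV and 6.13 ± 1.66 in PBS, and the secreted factor Egfl7 27.0 ± 4.9 in IP, 30.7 ± 11.1 in IV and 28.1 ± 7.87 in PBS (SD, n = 3 each). The transcription factors Sox17 and Sox18, the tight junction gene Cldn5 and the nitric oxide synthase gene Nos3 had group means from 1.26 to 5.05 CPM. Their log2 fold changes against PBS ran from -0.48 to 0.42 in IP and from -0.06 to 0.32 in IV.

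**Figure D2:**
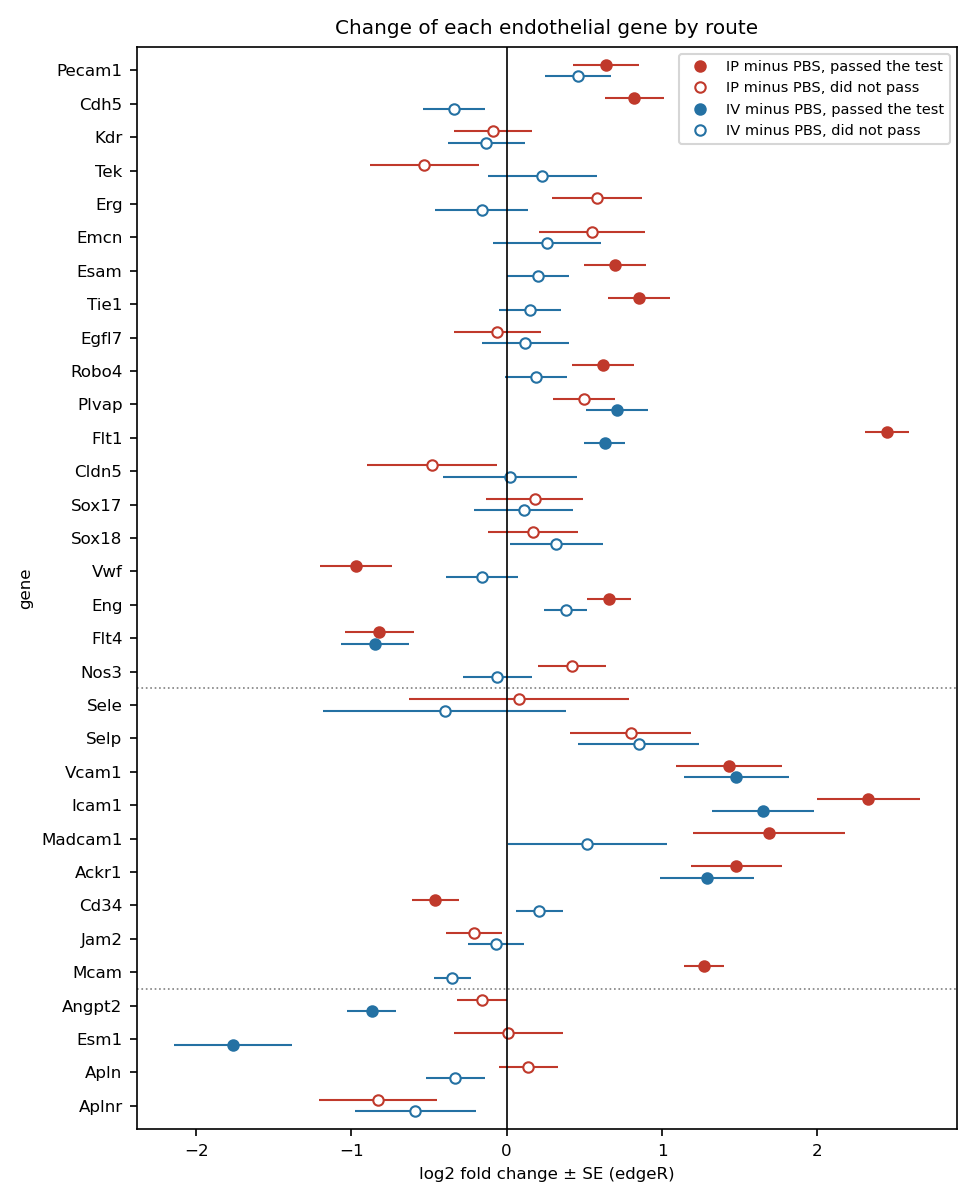
Log2 fold change against PBS (horizontal axis, bars are SE) of each of the 32 genes (vertical axis), for IP in red and IV in blue, with filled points for genes that passed the test. Flt1 and Icam1 lie farthest right in IP at 2.45 and 2.33, and Esm1 lies farthest left in IV at -1.76.

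Of the 9 adhesion genes, 5 rose, 1 fell and 3 did not pass after IP delivery, with a median log2 fold change of 1.27. After IV delivery 3 rose and 6 did not pass, with a median of 0.52, and 1 rose without PBS 1 or IV 2, while all 3 calls were lost without PBS 2. The shares over all genes tested were 18.7% higher and 14.2% lower in IP, and 10.4% higher and 5.66% lower in IV. Icam1 binds the integrins LFA-1 and Mac-1 of leukocytes and is also made by leukocytes and many cells exposed to cytokines. It had 68.1, 82.1 and 86.6 CPM in IP, 38.3, 56.7 and 53.3 in IV and 8.57, 13.1 and 25.3 in PBS. The 3 groups were separate from each other, with PBS 3 the highest PBS library. Icam1 rose by 2.33 in IP (SE 0.33, edgeR adjusted p = 0.00042) and by 1.65 in IV (SE 0.33, adjusted p = 0.00933). IP and IV differed by 0.68 (SE 0.32, adjusted p = 0.215). Without PBS 2 the IV difference did not pass (adjusted p = 0.0563), and without IV 4 it was 1.58 (adjusted p = 0.0319).

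Vcam1, the ligand of the integrin VLA-4, rose after both routes. It had 86.8, 83.2 and 89.6 CPM in IP, 53.3, 92.3 and 124 in IV and 20.6, 26.2 and 49.6 in PBS. Every treated library exceeded every PBS library, IV 1 only just above PBS 3. Vcam1 rose by 1.43 in IP (SE 0.34, edgeR adjusted p = 0.00828) and 1.48 in IV (SE 0.34, adjusted p = 0.0168), and IP differed from IV by -0.05 (SE 0.33, adjusted p = 0.945). The IP call was lost without PBS 2 (adjusted p = 0.0606) and the IV call without IV 2, IV 4, PBS 1 or PBS 2 (0.0543 to 0.0886). Without a filter on low counts both calls were lost, with adjusted p = 0.11 in IP and 0.141 in IV.

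Ackr1, an atypical receptor that carries chemokines across venules, had 5.53, 6.35 and 5.66 CPM in IP, 4.98, 7.07 and 3.68 in IV and 1.91, 1.54 and 2.78 in PBS. All treated libraries lay above all PBS libraries, with log2 fold changes of 1.48 in IP (SE 0.29, edgeR adjusted p = 0.00307) and 1.29 in IV (SE 0.3, adjusted p = 0.0174). The IV call was lost without IV 2, PBS 1 or PBS 2 (0.0566 to 0.077), and stood at 1.49 without IV 4 (adjusted p = 0.00631). Madcam1, the mucosal ligand of the integrin made with Itgb7, was among the lowest of the set. It had 1.58, 2.24 and 2.06 CPM in IP, 1.09, 0.934 and 0.616 in IV and 0.246, 0.461 and 1.06 in PBS, and its IP libraries lay above all others. It rose by 1.69 in IP (SE 0.49, adjusted p = 0.0212), a call lost without IP 3, IP 4, PBS 1 or PBS 2 (0.0594 to 0.0733). In IV its difference was 0.52 (SE 0.51, adjusted p = 0.532). Without PBS 2, 3 adhesion genes rose in IP in place of 5.

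Mcam and Cd34 separated the routes. Mcam, an adhesion molecule of endothelial cells, pericytes and melanoma cells, had 147, 147 and 154 CPM in IP, 49.4, 44.3 and 52.4 in IV and 60.2, 54.8 and 71.2 in PBS. All IP libraries lay above all PBS libraries, and all PBS libraries above all IV libraries. It rose by 1.27 in IP against PBS (SE 0.13, edgeR adjusted p = 5.26e-05) and by 1.61 in IP against IV (SE 0.13, adjusted p = 0.000135). The IV difference from PBS was -0.35 (SE 0.12, adjusted p = 0.0851), and -0.41 without IV 4 (adjusted p = 0.0433). Cd34, a sialomucin that vessels and stromal progenitors carry and that can serve as an L-selectin ligand, had 39.0, 38.5 and 34.2 CPM in IP, 49.8, 69.8 and 58.1 in IV and 47.0, 48.8 and 57.7 in PBS. Its IP libraries lay below all others, at -0.46 against PBS (SE 0.15, adjusted p = 0.0339) and -0.66 against IV (SE 0.15, adjusted p = 0.0174). The first call was lost without any 1 IP library, PBS 1 or PBS 3 (0.0519 to 0.129), and the second without any 1 IP library or IV 2 (0.0564 to 0.079).

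The selectins did not pass in either comparison with PBS. Selp, the P-selectin gene, had 17, 17.9 and 17 CPM in IP, 29.4, 12.1 and 11.7 in IV and 12.8, 5.07 and 11.8 in PBS. The IP libraries were close together and above PBS, while IV 1 stood far above the other IV libraries. Its log2 fold change was 0.8 in IP (SE 0.39, edgeR adjusted p = 0.144) and 0.85 in IV (SE 0.39, adjusted p = 0.166). Sele, the E-selectin gene, was counted 8, 4 and 15 times in IP, 3, 4 and 9 times in IV and 3, 12 and 18 times in PBS. At these counts its log2 fold changes of 0.08 in IP (SE 0.71) and -0.4 in IV (SE 0.78) could not be told from 0. Jam2, a junction molecule, averaged 13.5 ± 1.05 CPM in IP, 14.9 ± 1.12 in IV and 15.6 ± 3.56 in PBS (SD, n = 3 each), and the groups overlapped.

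**Figure D3:**
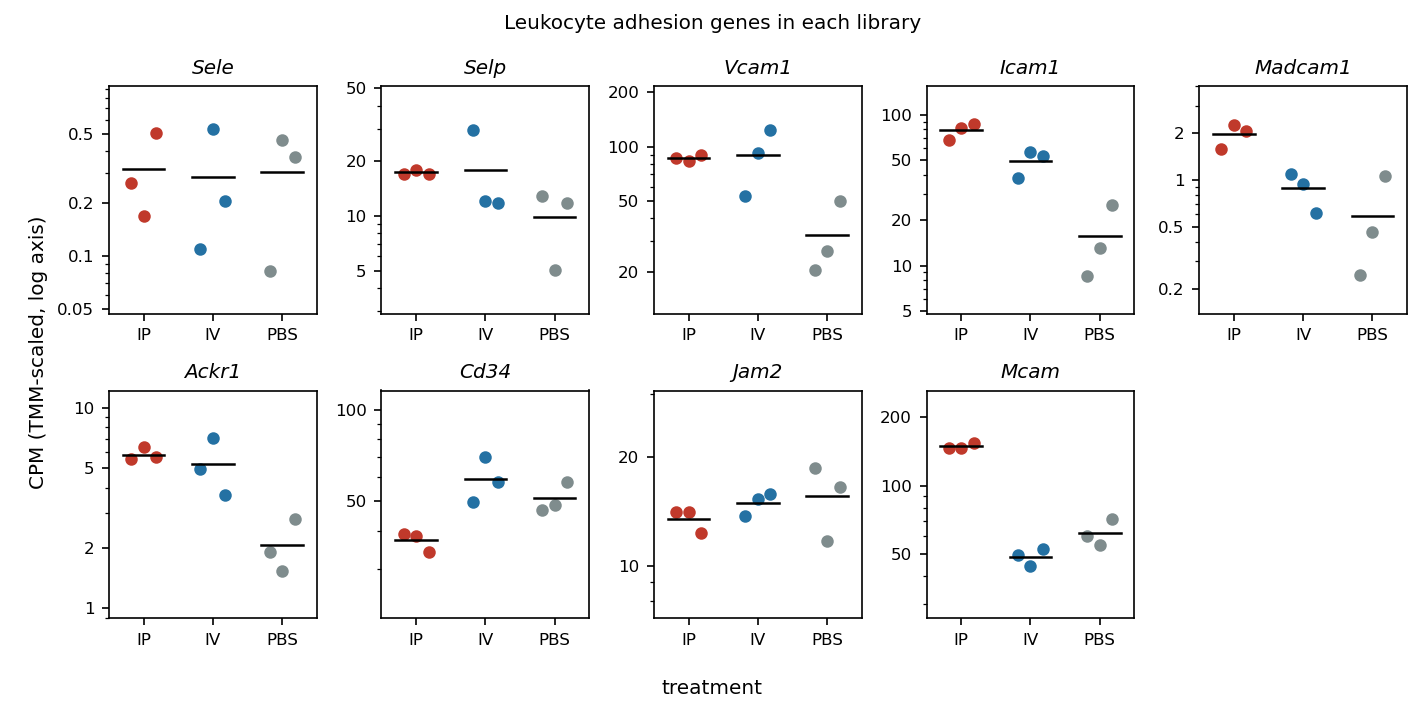
CPM on a log axis (vertical) of the 9 adhesion genes in each library, grouped by treatment (horizontal), with 1 point per library and a line at the mean. Icam1 lies between 68.1 and 86.6 CPM in IP, between 38.3 and 56.7 in IV and between 8.57 and 25.3 in PBS, and Mcam lies between 147 and 154 CPM in IP and at 71.2 CPM or less elsewhere.

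Cytokine-driven adhesion genes are known to be switched on through NF-kB, interferon-gamma and STAT factors, and endothelial genes through ETS factors such as ERG. Promoters of 20 of the 32 genes, 24 in all, were found among 32851 RefSeq promoters of the build GRCm38.p6, each running from 250 bases before to 50 bases after the start. The following 250 bases before the start are shown for 3 adhesion genes. Icam1 and Madcam1 rose in IP, and Sele, with 3 to 18 counts per library, had too few counts for its response to be known. Capitals mark letters that match TTCNNNGAA, a palindromic interferon-gamma activated (GAS-like) motif, in Icam1 and Sele, and GGG, 2 free bases and TTTCC, an NF-kB-like motif, on the minus strand in Madcam1. All lie on the plus strand, Icam1 at chr9:21015690-21015939, Madcam1 at chr10:79664309-79664558 and Sele at chr1:164047984-164048233.
Icam1: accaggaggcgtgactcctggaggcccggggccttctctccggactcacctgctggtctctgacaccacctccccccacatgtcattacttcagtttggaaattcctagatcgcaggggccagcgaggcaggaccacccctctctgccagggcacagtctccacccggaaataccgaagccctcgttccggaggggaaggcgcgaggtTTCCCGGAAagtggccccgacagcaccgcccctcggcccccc
Madcam1: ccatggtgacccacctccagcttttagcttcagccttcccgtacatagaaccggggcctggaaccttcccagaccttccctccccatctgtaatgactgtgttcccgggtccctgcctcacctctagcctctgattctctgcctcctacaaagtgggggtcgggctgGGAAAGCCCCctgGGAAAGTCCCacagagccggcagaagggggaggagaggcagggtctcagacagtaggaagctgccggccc
Sele: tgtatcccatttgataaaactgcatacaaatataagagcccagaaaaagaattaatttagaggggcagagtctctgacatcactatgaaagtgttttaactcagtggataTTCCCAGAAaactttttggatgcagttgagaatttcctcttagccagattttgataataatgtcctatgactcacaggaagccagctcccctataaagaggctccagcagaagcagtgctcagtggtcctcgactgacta

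Among all promoters searched on both strands, 8.3% held the GAS-like letters, and of the 24 promoters 2 did, or 8.33%, the same share. Those were Icam1, from -42 relative to the start, and Sele, from -140. The NF-kB-like letters stood in 1.63% of all promoters and in 1 of the 24, or 4.17%, that of Madcam1 at -83 and -70. A looser form, GGG, 3 free bases and TTCC, which overlaps it, stood in 5.56% of all promoters and in 2 of the 24, or 8.33%, of Madcam1 and Egfl7. An interferon-stimulated response motif, TTTC, 2 free bases and TTTC, stood in 3.44% of all promoters and in none of the 24. The ETS-like letters CAGGAA stood in 13 of the 24 promoters, or 54.2%, against 30.6% of all promoters. Those 13 belonged to 12 genes. Of all 32 genes, 12 rose and 3 fell in IP. Of the 12 with ETS-like letters, Tie1, Eng, Robo4 and Ackr1 rose in IP while Cd34 fell. These are matches of letters in a window, without a measurement of binding. Sites spelled otherwise, such as NF-kB sites without GGG, were not searched for, in Icam1 or elsewhere. A gene without a match either lacked these letters or had no promoter among the 24.

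Sprouting genes divided the routes in another way, with no gene of the 4 called in IP against PBS and 2 of 4 falling in IV, for a median log2 fold change of -0.08 in IP and -0.73 in IV. Over all genes tested, 32.9% were called in IP and 5.66% fell in IV. In IP, edgeR also gave no sprouting gene an unadjusted p under 0.05, and DESeq2 and limma voom called none. Esm1, a proteoglycan secreted by tip cells under VEGF, had 3.89, 5.97 and 3.03 CPM in IP, 0.800, 1.47 and 1.55 in IV and 4.15, 5.68 and 2.99 in PBS. All 3 IV libraries, with 22, 11 and 68 counts, lay below all others, and the IP and PBS libraries covered the same range. Esm1 fell by 1.76 in IV against PBS (SE 0.38, edgeR adjusted p = 0.0131), and by 2.04 without IV 4 (adjusted p = 0.0107), on the log2 scale. It was 1.77 higher in IP than in IV (SE 0.38, adjusted p = 0.0156), a call lost without IP 2 (0.0506) or IP 3 (0.0707).

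Angpt2, the ligand that loosens vessels and is stored in endothelial granules, was also lowest in IV. It had 25.5, 30.4 and 28.3 CPM in IP, 19.4, 13.9 and 18.0 in IV and 33.5, 34.4 and 26.4 in PBS, with the IV libraries below all others. It fell by 0.87 in IV against PBS (SE 0.16, edgeR adjusted p = 0.00723) and differed by -0.16 in IP (SE 0.16, adjusted p = 0.484). Its level was 0.7 higher in IP than in IV on the log2 scale (SE 0.16, adjusted p = 0.0209), a call lost without any 1 IP library or IV 2 (0.0576 to 0.0991). Sprouting genes higher in IP than in IV numbered 2, but 1 without IP 4 or IV 2, and both calls were lost without IP 2 or IP 3.

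Apln, a peptide secreted by tip cells, had 23.9, 20.4 and 15.0 CPM in IP, 12.7, 13.3 and 16.7 in IV and 18.1, 16.9 and 18.7 in PBS. The IV libraries lay below the PBS libraries, at -0.33 on the log2 scale (SE 0.19, edgeR adjusted p = 0.269). Its receptor gene Aplnr had 1.75, 2.75 and 1.35 CPM in IP, 1.31, 3.34 and 2.47 in IV and 4.48, 3.15 and 2.72 in PBS, with a difference of -0.83 in IP (SE 0.38, adjusted p = 0.127) and -0.59 in IV (SE 0.39, adjusted p = 0.338).

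**Figure D4:**
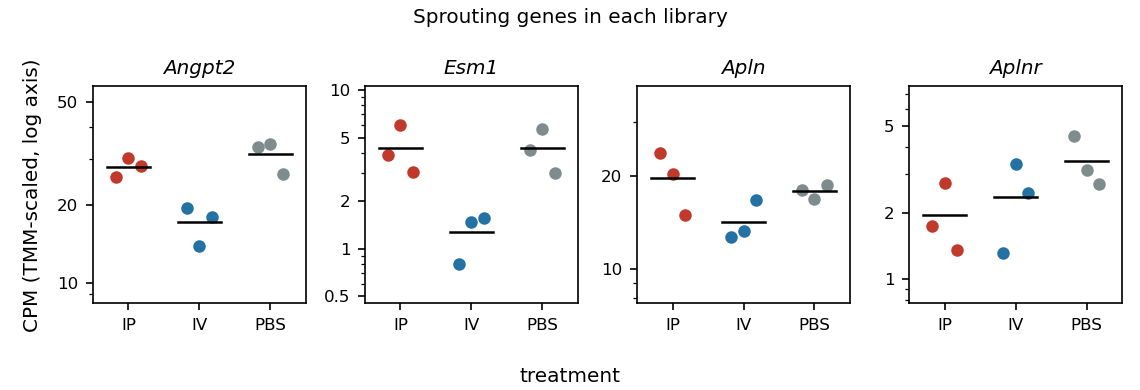
CPM on a log axis (vertical) of the 4 sprouting genes in each library, grouped by treatment (horizontal), with 1 point per library and a line at the mean. Esm1 lies between 0.8 and 1.55 CPM in IV, below its lowest IP library at 3.03 and its lowest PBS library at 2.99.

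The summed level of the 19 identity genes was itself higher in every treated library than in any PBS library. It came to 700, 788 and 726 CPM in IP, 623, 664 and 554 in IV and 474, 494 and 511 in PBS, of which Eng alone made 47.1 to 50% in IP, 38.9 to 55.5% in IV and 42 to 48.5% in PBS. A further endothelial identity list summed to 395 to 447 CPM in IP, 382 to 485 in IV and 394 to 410 in PBS. Its groups overlapped, so the higher sum holds for the 19 genes only. Set against the sum of the 19 identity genes, Icam1 came to 9.73, 10.4 and 11.9% in IP, 6.14, 8.54 and 9.62% in IV and 1.81, 2.65 and 4.94% in PBS, so its groups of treated libraries stayed above PBS. Vcam1 came to 12.4, 10.5 and 12.3% in IP, 8.55, 13.9 and 22.3% in IV and 4.34, 5.30 and 9.70% in PBS, where IV 1 lay below PBS 3. Ackr1 likewise stayed above PBS, at 0.791, 0.806 and 0.780% in IP, 0.800, 1.07 and 0.664% in IV and 0.403, 0.311 and 0.545% in PBS.

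Mcam came to 21.0, 18.7 and 21.2% of the identity sum in IP, 7.93, 6.67 and 9.47% in IV and 12.7, 11.1 and 13.9% in PBS, the same order of groups as its CPM. Cd34 stood at 5.57, 4.89 and 4.72% in IP, 7.98, 10.5 and 10.5% in IV and 9.91, 9.88 and 11.3% in PBS. Angpt2, with 3.65, 3.86 and 3.90% in IP, 3.11, 2.09 and 3.25% in IV and 7.08, 6.95 and 5.16% in PBS, lay below PBS in both treated groups on this scale. Esm1 stood at 0.555, 0.757 and 0.418% in IP, 0.128, 0.221 and 0.280% in IV and 0.876, 1.15 and 0.585% in PBS. On this scale, then, the IP libraries overlapped PBS for Esm1 but not for Angpt2. These ratios are descriptions, without a test.

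**Figure D5:**
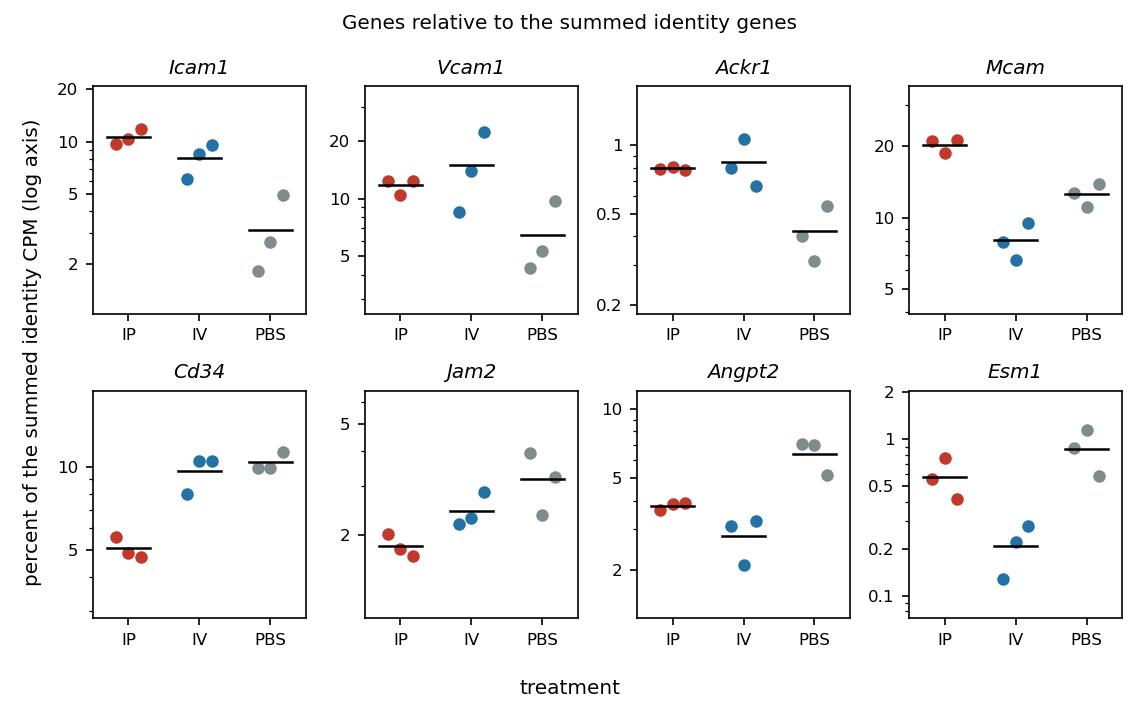
Level of 8 adhesion and sprouting genes as percent of the summed CPM of the 19 identity genes (vertical, log axis) in each library, grouped by treatment (horizontal), with 1 point per library and a line at the mean. Icam1 is at 9.73 to 11.9% in IP, 6.14 to 9.62% in IV and 1.81 to 4.94% in PBS, and Angpt2 is below its lowest PBS library, 5.16%, in all treated libraries.

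Further vessel genes, from lists of known roles chosen with earlier results of these data known, were counted in the same fit. Beside each count below stand the shares over all genes tested. These were 18.7% higher and 14.2% lower in IP, and 10.4% higher and 5.66% lower in IV. Between the routes, 5.93% were higher and 4.47% lower in IP than in IV. Of 11 arterial and Notch genes tested, 7 rose in IP and 2 in IV, with medians of 1.12 and 0.14, and 5 were higher in IP than in IV. Sema3g, a semaphorin of arterial endothelium, averaged 20.4 ± 0.904 CPM in IP, 10 ± 0.835 in IV and 5.92 ± 1.66 in PBS, and rose by 1.78 in IP (SE 0.2, edgeR adjusted p = 0.000113). The connexin gene Gja4, at 11.2 ± 1.5 CPM in IP, 6.04 ± 1.82 in IV and 2.55 ± 0.849 in PBS, rose by 2.14 in IP (SE 0.3, adjusted p = 0.00038), and Gja5 by 1.88 (SE 0.28, adjusted p = 0.000497). Notch4, an endothelial Notch receptor, averaged 11.8 ± 1.66 CPM in IP, 5.13 ± 0.856 in IV and 5.18 ± 1.07 in PBS, and was 1.22 higher in IP than in IV (SE 0.22, adjusted p = 0.00693). The count in IV was 1 without PBS 2, IV 1 or any 1 IP library, and both calls were lost without PBS 1 or IV 2. Without IV 1 the calls of Sema3g (edgeR adjusted p = 0.0532) and Gja4 (0.0703) were lost too, and another gene of the list passed. The count of IP over IV was 3 without IP 3.

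Of 13 genes of VEGF and angiopoietin ligands and coreceptors, 5 rose and 1 fell in IP, with a median of 0.72, while the median in IV was -0.01. Vegfa, the ligand of Flt1 and Kdr, averaged 89.1 ± 15 CPM in IP, 24.8 ± 5.19 in IV and 34 ± 4.34 in PBS (SD, n = 3 each). It rose by 1.39 in IP against PBS (SE 0.18, edgeR adjusted p = 0.000237) and stood 1.83 higher in IP than in IV (SE 0.19, adjusted p = 0.000482), while IV differed from PBS by -0.44 (SE 0.18, adjusted p = 0.125), and by -0.63 without IV 4 (adjusted p = 0.0244). Of the list, 1 gene rose in IV, or 2 without PBS 3, a call lost without PBS 1, PBS 2 or IV 2, and 3 fell without IV 4 and 1 without IV 1. Adm, the vessel peptide adrenomedullin, was at 9.78 ± 1.09 CPM in IP, 2.25 ± 0.353 in IV and 2.3 ± 0.111 in PBS. Vegfb, a ligand of Flt1 but not of Kdr, fell in IP, at 67.4 ± 1.39 CPM in IP, 117 ± 33.7 in IV and 131 ± 9.76 in PBS (log2 fold change -0.96, SE 0.18, adjusted p = 0.00205). Of 12 tip cell genes, 5 rose and 1 fell in IP, or 2 without IV 4, and 1 rose and 2 fell in IV. Adm is in this list and in the one before, and its rise in IP is counted in each. Which cells made the tip cell genes was not tested. The gene that rose in IV was Ramp3, a coreceptor for adrenomedullin, at 1.15 (SE 0.27, adjusted p = 0.0188), with 3 rises without IV 4 and its call lost without PBS 1, PBS 2 or IV 2 and with limma voom. Igfbp3, among them, rose by 2.77 in IP (SE 0.18, adjusted p = 1.39e-05), at 83.4 ± 8.57 CPM in IP, 17.5 ± 4.5 in IV and 12.3 ± 0.882 in PBS. In IV, tip cell genes that fell numbered 6 without IV 4 and 1 without PBS 3, IV 1 or IV 2, and both calls were lost without PBS 1.

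Of 24 other endothelial identity genes tested, 8 rose and 4 fell in IP, with a median of 0.49, beside 0.5 for the 19 identity genes, and 3 rose in IV. Unlike the sum of the 19, the sum of this list overlapped between the groups. The 8 became 4 with limma on the deposited log2 CPM and 3 to 5 without PBS 1, PBS 2 or any 1 IP library, the 4 became 2 without PBS 1 or any 1 IP library, and the 3 in IV became 1 without PBS 2, 5 without IV 4, and were lost without PBS 1 or IV 2. Ecscr, a chemotaxis regulator of endothelium, averaged 50.9 ± 5.23 CPM in IP, 35.2 ± 9.23 in IV and 18.2 ± 2.89 in PBS, and rose by 1.49 in IP (SE 0.2, edgeR adjusted p = 0.000315) and 0.95 in IV (SE 0.2, adjusted p = 0.0128). Tm4sf1, which tumour cells also make, averaged 62.2 ± 4.5 CPM in IP, 94.7 ± 19.1 in IV and 140 ± 20.3 in PBS, and fell by 1.17 in IP (SE 0.17, adjusted p = 0.00042). Over all genes tested, 18.7% rose and 14.2% fell in IP, and 10.4% rose and 5.66% fell in IV. Among 10 venous and high endothelial venule genes, 2 rose and 1 fell in each treated group, which in IP is near those shares. The gene that fell in both was Ephb4, an ephrin receptor of veins, at 34 ± 2.47 CPM in IP, 32.6 ± 4.21 in IV and 47.7 ± 2.87 in PBS. Its log2 fold change was -0.49 in IP (SE 0.13, adjusted p = 0.0141) and -0.54 in IV (SE 0.13, adjusted p = 0.0197), and the fall was lost in IP without PBS 1, IP 2 or IP 4 and in IV without PBS 1 or IV 2. Ch25h, a sterol hydroxylase that macrophages also make, averaged 46.1 ± 2.42 CPM in IP, 7.76 ± 0.594 in IV and 1.26 ± 0.926 in PBS, and rose by 5.14 in IP (SE 0.42, adjusted p = 2.7e-05) and 2.57 in IV (SE 0.4, adjusted p = 0.00333). The 2 rises became 1 in IP without PBS 1, PBS 2 or IP 4, and 1 in IV without any 1 PBS library, IV 1 or IV 2. The rise of Il1r1 in IP was also lost without IP 2 (edgeR adjusted p = 0.0937).

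Of 10 leukocyte counter-receptors, the partners of the adhesion genes, 7 rose in IP and 5 in IV, with medians of 1.34 and 1.1, the 5 in IV becoming 3 without PBS 1 or PBS 2. Itgb2, the integrin chain that binds ICAM1, averaged 590 ± 8.5 CPM in IP, 226 ± 29.8 in IV and 110 ± 44 in PBS, and rose by 2.42 in IP (SE 0.25, edgeR adjusted p = 6.77e-05). Itgb7, the chain that pairs to bind MAdCAM1, averaged 65.5 ± 6.58 CPM in IP, 85.8 ± 15.7 in IV and 27.5 ± 11.1 in PBS, and rose by 1.64 in IV (SE 0.25, adjusted p = 0.00316). The chains of VLA-4, which binds VCAM1, did not pass: Itga4 differed by -0.39 in IP (SE 0.23, adjusted p = 0.237) and 0.05 in IV (SE 0.23, adjusted p = 0.909), and Itgb1 by -0.15 in IP (SE 0.15, adjusted p = 0.48) and -0.44 in IV (SE 0.15, adjusted p = 0.0738). Of 16 activation chemokines and mediators, 15 rose in IP and 6 in IV, with medians of 3.48 and 1.16, and 12 were higher in IP than in IV, or 6 without IP 2. Nfkbia, the NF-kB inhibitor that NF-kB itself switches on, rose by 1.86 in IP (SE 0.21, adjusted p = 9.5e-05), and Procr, the endothelial protein C receptor, by 1.86 (SE 0.2, adjusted p = 7.41e-05).

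Other cell types that carry some of these genes also varied, and their part in the results was not tested. Counts here and in the next paragraph are to be read beside the shares over all genes tested. Those were 18.7% higher and 14.2% lower in IP, 10.4% higher and 5.66% lower in IV, and 4.47% lower in IP than in IV. Of 9 macrophage markers, 6 rose in each treated group and 1 fell in IP, and their sum was 1620 to 1730 CPM in IP, 1560 to 2040 in IV and 635 to 1060 in PBS. The marker that fell was Mertk, a receptor for dying cells, at -0.46 in IP (SE 0.13, edgeR adjusted p = 0.0189), a call lost without PBS 1, IP 2 or IP 3. Macrophages can make Icam1, Vcam1, Eng and Pecam1, and PBS 3, which had the highest Icam1 and Vcam1 of the PBS libraries, also had the highest macrophage sum of them. Of 7 melanoma markers, 5 fell in IP and 3 in IV, with 1 in IV without IP 4 or IV 2, and all 3 lost without PBS 1, and their sum was 13400 to 15100 CPM in IP, 18000 to 23400 in IV and 25200 to 28100 in PBS. Mcam, which melanoma cells can make, was highest in IP, where that sum was lowest. The 2 melanoma markers that did not pass in IP were Mlana, at -0.45 (SE 0.21, edgeR adjusted p = 0.134), and Sox10, at -0.33 (SE 0.16, adjusted p = 0.135). Between IP and IV, Mlana differed by -0.68 (SE 0.21, adjusted p = 0.069) and Sox10 by -0.05 (SE 0.16, adjusted p = 0.895). Of 11 pericyte and smooth muscle markers, 1 rose and 2 fell in IP, with sums of 174 to 211 CPM in IP, 174 to 221 in IV and 162 to 170 in PBS. The rise, that of Des, was lost without PBS 1 or IP 2 (edgeR adjusted p 0.056 and 0.0571), and Acta2 passed without IP 2 (0.0298). Des was the largest part of the sum, at 64 ± 5.15 CPM in IP, 65.4 ± 9.94 in IV and 43.4 ± 4.24 in PBS. The genes that fell in IP were Rgs5, at -0.83 (SE 0.25, edgeR adjusted p = 0.025), and Cspg4, at -1.31 (SE 0.35, adjusted p = 0.0145). Both falls were lost without PBS 1 or IP 2, with 1 fall left without PBS 2, IP 3 or IP 4 and 2 rises without IV 4. Mast cell markers rose in 5 of 6 in IP, or 3 without PBS 2, and in 1 of 6 in IV, or 4 without IV 4, a call lost without PBS 1, PBS 2, IV 2 or any 1 IP library. They summed to 35 to 42.8 CPM in IP, 16.4 to 39.1 in IV and 10.1 to 14.9 in PBS. Kit passed in IV without PBS 3 (edgeR adjusted p = 0.0456) or IV 1 (0.0279), where the count stayed at 1. Adipocyte markers summed to 247 to 332 CPM in IP, 506 to 683 in IV and 342 to 563 in PBS, with IP below both other groups. Of the 7, 2 were lower in IP than in IV, or 6 without PBS 3, 4 without IP 4 and 1 without IP 2. Platelet genes, which matter for Vwf, Selp and Pecam1, had enough counts for 3 of 10, and their sum was 28.9 to 34.0 CPM in IP, 7.83 to 29.2 in IV and 14.6 to 27.0 in PBS. Of the 3 tested, 1 rose in IP, Clec1b, a receptor that some myeloid cells also carry, at 0.811 ± 0.141 CPM in IP, 0.281 ± 0.128 in IV and 0.141 ± 0.095 in PBS (log2 fold change 2.52, SE 0.57, edgeR adjusted p = 0.00651). Platelet genes that rose in IP numbered 3 without IV 4, Pf4 among them (edgeR adjusted p = 0.0435), and 2 without IV 1. The filter on low counts was applied anew in those fits, so these counts can hold genes outside the 3 tested. Most of the sum was Pf4, and Ppbp, too low to be tested, averaged 0.535 ± 0.186 CPM in IP, 0.105 ± 0.0942 in IV and 0.0711 ± 0.0684 in PBS. Gp1bb was at 0 in every IV and PBS library and Gp6, Gp9, Treml1 and Tubb1 averaged under 0.2 CPM in each group.

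Of 6 lymphatic markers tested besides Mmrn1, which was at 0 in all 9 libraries, 1 rose and 2 fell in IP, Flt4 among those that fell, and 1 fell without PBS 1, IP 2 or IP 4. In IV, 2 rose, Ccl21a, a chemokine of lymphatic and lymphoid vessels, at 2.07 (SE 0.55, edgeR adjusted p = 0.0287), and Reln, a secreted glycoprotein, at 2.34 (SE 0.65, adjusted p = 0.0339), and Flt4 fell. Both calls were lost without any 1 PBS library, IV 1 or IV 2 and with limma voom, and that of Reln also without any 1 IP library. Prox1, the factor that defines lymphatic identity, averaged 4.07 ± 0.842 CPM in IP, 4.28 ± 0.795 in IV and 5.23 ± 0.865 in PBS, and differed by -0.36 in IP (SE 0.24, edgeR adjusted p = 0.289). Lyve1, which macrophages also carry, fell in IP, at 9.9 ± 2.55 CPM in IP, 40.7 ± 7.42 in IV and 29.1 ± 17.4 in PBS (log2 fold change -1.56, SE 0.37, adjusted p = 0.00836). Pdpn, which fibroblasts also carry, rose by 1.5 in IP (SE 0.18, adjusted p = 0.000139). The marker sum was 192 to 246 CPM in IP, 125 to 146 in IV and 105 to 130 in PBS. Most of that sum was Pdpn, at 195 ± 27.4 CPM in IP, 77.7 ± 13.6 in IV and 69 ± 13.1 in PBS. The sum therefore follows Pdpn rather than the lymphatic markers as a set. Fibroblast markers rose in 2 of 8 in IP, in 1 without PBS 1, PBS 2 or IP 3, in 4 without PBS 3, and both calls were lost without IP 4, with sums of 2050 to 2400 CPM in IP, 1350 to 1850 in IV and 1210 to 2100 in PBS. Follicular dendritic cells, which can carry Icam1, Vcam1 and Madcam1, had 3 of 4 tested markers lower in IP and 2 of 4 higher in IV, or 1 without PBS 1, PBS 2 or IV 2, and 1 of 4 higher in IP without IP 2 or IP 3, with sums of 172 to 377 CPM in IP, 257 to 473 in IV and 275 to 298 in PBS. Lower in IP were Cr2, Fcer2a and Cxcl13, and higher in IV were Cr2 and Fcer2a. The Cr2 call in IP was lost without any 1 PBS or IP library (edgeR adjusted p 0.0501 to 0.143). Clu, the gene higher in IP without IP 2 or IP 3, averaged 159 ± 126 CPM in IP, 114 ± 30.4 in IV and 63.8 ± 4.58 in PBS. The marker Fdcsp could not be matched by symbol. Which cells made these genes was not tested. Mesothelial markers, of a lining that also makes Icam1 and Vcam1, rose in 1 and fell in 2 of 7 in IP, or 1 without IP 2, and summed to 130 to 168 CPM in IP, 155 to 202 in IV and 130 to 193 in PBS.

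Leaving out IP 4 and IV 1, the libraries richest in acinar transcripts, gave 9 in place of 12 rises in IP, 2 in place of 3 falls in IP, and 3 in place of 5 rises in IV. Of the 15 calls in IP against PBS, 8 held in all 18 alternative settings, those of Cdh5, Tie1, Flt1, Vwf, Eng, Icam1, Ackr1 and Mcam. The same held for 2 of the 8 calls in IV against PBS, Angpt2 and Esm1, and for 3 of the 7 between the routes, Cdh5, Flt1 and Mcam.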

How the data were processed

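Poly(A) libraries from 100 ng of omental RNA were read as pairs of 51 bases, per the labels' protocols. The submitters' processing notes name STAR 2.7.9, mm39, featureCounts and limma, without roles. The sources used here give neither annotation release nor strand setting. Raw whole-number counts were deposited for 55359 genes in 9 libraries. The authors' second table holds log2 CPM of 18833 genes, without scaling beyond library totals, and served as an alternative.

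Identifiers were matched to symbols, exon lengths and promoters through an older annotation (GRCm38), which named 52083 genes. Groups follow the sample titles, whose mouse numbers differ from those in some descriptions. Counts were fitted with edgeR 4.0.16 in R 4.3.3: filterByExpr left 17123 genes, libraries were TMM-scaled, and all 9 entered 1 robust quasi-likelihood fit. Tests were two-sided, with Benjamini-Hochberg adjustment over all genes tested and a threshold of 0.05. The SE is the absolute log2 fold change over the square root of F. The p-values rest on the spread between mice within groups, estimated from all 9 libraries together and shared in part across genes.

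The members and lists were chosen with earlier results of these data known. All 32 members are named, and of each other list up to 4 genes with the smallest p in IP or IV against PBS, with markers at or near 0 and Adipoq and Prox1 added for what they mark. Itga4, Itgb1, Ppbp, Mertk, Mlana and Sox10 were named after their values were seen. Alternatives were DESeq2 1.42.0 (size factors, Wald test), limma 3.58.1 (voom, and deposited log2 CPM), other filters, the compared groups alone, a replicate block, and libraries left out. Correlations of deviations between same-numbered mice ran from -0.4 to 0.1, so that numbers were not taken as pairs. The scripts were tested on simulated data. Genes with overlapping or antisense neighbours may share reads, since the strand setting is unknown.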

Additional observations from a re-analysis of the deposited data

Results flagged for a closer look

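Of the 32 genes, 7 differed between the routes when IP was tested against IV, and since both share PBS this tests whether their changes from PBS differ. Log2 fold changes were 1.16 for Cdh5 (edgeR adjusted p = 0.00519), 1.83 for Flt1 (0.000117) and 1.61 for Mcam (0.000135), which stood higher in all 3 IP libraries than in any IV library. The same held for Angpt2 at 0.7 (0.0209) and Esm1 at 1.77 (0.0156). Vwf at -0.81 (0.0485) and Cd34 at -0.66 (0.0174) were lower in all 3 IP libraries than in any IV library. The route was compared within 3 mice a group, and the acinar share of IP 4 and IV 1 was high in both arms.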

How the results depend on the processing

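No direction of a called gene reversed in the 18 alternatives run. With 1 library left out, rises numbered 8 to 13 in IP against PBS, 1 to 5 in IV against PBS and 3 to 5 in IP against IV, and falls 1 to 3, 2 to 4 and 0 to 2 in the same order. Where IP against IV had no fall under edgeR, IP 2, IP 3 or IV 2 was left out, and with all libraries 2 members had been called lower. Rises in IV against PBS numbered 3 without a filter on low counts, 1 with the compared groups alone (1 without PBS 1 or PBS 2, 2 without IV 2), and 3 without IP 4 and IV 1. Falls in IP against IV numbered 1 with DESeq2 size factors, limma voom, the compared groups alone, the replicate block, and without IP 4 and IV 1. The replicate block gave 11 rises and 2 falls in IP against PBS, 6 and 3 in IV against PBS, and 4 and 1 in IP against IV, and with it Selp passed, at 1.28 in IP (adjusted p = 0.00309) and in IV (adjusted p = 0.032). With limma on the deposited log2 CPM, IP against PBS had 1 venous rise in place of 2, 3 tip cell falls in place of 1 and 1 fibroblast rise in place of 2, and the pericyte rise and the mast cell rise in IV were lost. A stricter filter left 30 members, without Sele and Madcam1. Depth limits Sele most, and IV 2 is the shallowest library. The cause of these changes was not tested.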
